A study of Mus musculus with 36 samples.

Results

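The response of dendritic cells labelled as lacking LGP2 (KO) to 6 h of PAMP RNA was measured by RNA sequencing, as the difference between 3 libraries of treated cells and 3 libraries of mock cells of the same genotype and time. These 6 of the 36 libraries of the study were chosen by their labels alone, and the test covered the 11853 of 24127 genes whose normalized count averaged 10 or more over the 36 libraries. The study grew dendritic cells from mouse bone marrow of strain C57BL/6 with the growth factor GM-CSF and purified them by CD11c, an integrin of the dendritic cell surface. The cells were wild type (WT) or carried the deletion of Dhx58, the gene of LGP2, and were collected 1, 3 or 6 h after transfection of 20 ng of PAMP RNA, or as mock cells. The PAMP RNA is the poly-U/C stretch of the hepatitis C virus genome and is described as a RIG-I agonist. Each of the 12 groups held 3 libraries, which the labels call biological triplicates without naming animals or cultures, so a p-value here reflects the spread among these libraries only. Control cells appear in the labels as mock and also as untreated, so a response includes whatever the transfection itself contributed.

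RIG-I and its relative MDA5 are cytoplasmic helicases that bind viral RNA and signal through the mitochondrial adaptor MAVS to the kinases TBK1 and IKK-epsilon. These activate IRF3, IRF7 and NF-kB, which switch on type I interferon and inflammatory cytokine genes. Secreted interferon then acts through its receptor and STAT factors and IRF9 on a large set of interferon-stimulated genes, many of which encode antiviral proteins. LGP2 binds RNA like its relatives but lacks the domains that contact MAVS, and dendritic cells use the pathway to mature into cells that activate T cells.

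Reads assigned to genes numbered 7192818 to 8676547 in the 6 libraries, with 14730 to 15093 genes seen in each. The lowest Pearson correlation between libraries of one group was 0.99 on the log2 scale (across genes, which are not independent replicates). The sum of normalized counts was 7318097 to 7478000.1 in mock libraries and 10297148 to 10494569 in PAMP libraries, so the choice of scaling sets the level of every change. Results are given on the scaling of the deposited table as differences of log2(normalized count + 1), which understate the change of low genes, with limma's moderated test. A gene was called at a Benjamini-Hochberg adjusted p under 0.05 over all genes tested. Counts of genes are also given for calls of the same sign under all 3 scalings, the others being quantile normalization and scaling to equal total reads, the last chosen after seeing the data. The median change of all genes was -0.03, -0.12 and -0.51 under the 3 scalings.

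Dhx58 (chromosome 11, 100694884 to 100704271, minus strand of GRCm38), the gene deleted in KO mice, had 808, 725 and 634 normalized counts in the KO mock libraries and 807, 985 and 1012 in the KO PAMP libraries. The 2 groups overlapped. WT cells of the same time held 307 ± 47.6 (SD, n = 3) without and 3005 ± 62.9 with PAMP RNA. The higher reads in KO than in WT mock cells go against the label, and the far smaller response goes with it. The KO change was 0.37 (SE 0.14, adjusted p = 0.0147). It was 0.06 (adjusted p = 0.72) under quantile normalization and -0.11 (adjusted p = 0.461) at equal totals. The call was also lost without KO PAMP replicate 2 (0.33, adjusted p = 0.0557), KO PAMP replicate 3 (0.31, adjusted p = 0.0713) or KO mock replicate 3 (0.28, adjusted p = 0.0997). Gene-level values cannot tell which exons these reads come from. They may also include reads of Dhx58os, an overlapping antisense gene, since the library kit is not described as stranded. KO below stands for the libraries labelled so.

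Markers of the labelled cell type were abundant. The 10 dendritic and myeloid markers summed to 290800 to 309700 normalized counts in KO mock libraries and 304300 to 318500 in KO PAMP libraries. They made up 3.96% to 4.14% of the normalized counts of a mock library and 2.95% to 3.09% of a PAMP library. Itgax, which encodes CD11c itself, had 2775, 2713 and 2770.3 in mock and 2426, 2601 and 2499.8 in PAMP libraries. Its change of -0.13 (SE 0.05, adjusted p = 0.0234) was no longer called without KO PAMP replicate 1 (-0.11, adjusted p = 0.0985), KO PAMP replicate 3 (-0.13, adjusted p = 0.0513), KO mock replicate 1 (-0.13, adjusted p = 0.0582) or KO mock replicate 3 (-0.13, adjusted p = 0.0553). The macrophage markers, which GM-CSF cultures also hold, summed to 30290 to 31390 in mock and 38330 to 40950 in PAMP libraries. Their share of a library was lower with PAMP RNA, at 0.414% to 0.42% in mock and 0.372% to 0.39% in PAMP libraries. Sums stayed far lower for B cell markers (137 to 144 in mock, 61.2 to 67.3 with PAMP RNA) and erythroid markers (6.77 to 13.2 and 5.73 to 8.31). Other lists were low in mock cells and had higher sums with PAMP RNA on the deposited scaling. T cell markers summed to 22 to 37.9 and 95 to 102, with no read of Cd3e, Cd3g, Cd8b1, Themis or Trat1 in the 6 libraries. NK cell markers summed to 109.7 to 124 and 938 to 1059. Most of that sum was Klrk1, with 119, 106 and 117 in mock and 931, 1054 and 999 in PAMP libraries, while Gzma and Klra8 had no read. Mast cell and basophil markers summed to 31.7 to 39.7 and 208 to 222, of which Hdc, the histamine-forming enzyme, made up 172, 147 and 166 in PAMP libraries, while Mcpt8, Fcer1a, Mcpt4 and Tpsb2 had no read. Plasmacytoid dendritic cell markers summed to 803 to 845 and 1110 to 1232, and neutrophil markers to 140.4 to 162 and 209 to 237. As shares of a library both lists overlapped between mock and PAMP cells. The plasmacytoid markers held 0.0107% to 0.0114% and 0.0108% to 0.0117%, and the neutrophil markers 0.0019% to 0.0022% and 0.00203% to 0.00226%. The part of other cell types in the changes below was not tested. In bulk libraries, fewer cells of a type and less RNA per cell cannot be told apart.

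On the deposited scaling most genes tested differed between PAMP RNA and mock KO cells at 6 h. Of 11853 genes 8494 were called (71.7%), of which 4162 rose (35.1% of those tested) and 4332 fell (36.5%), and the libraries of the 2 groups did not overlap for 73.0%. Under all 3 scalings 1936 genes rose (16.3%) and 3931 fell (33.2%). Each count of a list below is to be read beside these shares of all genes tested. The large changes were mostly rises: among called genes 1357 rose and 1136 fell at least 2-fold, 265 rose and 36 fell at least 8-fold, and 10 rose and none fell at least 256-fold. Since mock cells changed over the 6 h as well, the PAMP level was set beside the KO mock libraries of 1 h. Of genes that rose at least 2-fold 97.3% were also above the 1 h mock mean, and of genes that fell at least 2-fold 93.1% were also below it. Among called genes of any size both shares were 85.0%. All lists below were chosen with earlier results of these data known. Their counts, medians and promoter shares are therefore descriptions.

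**Figure D1:**
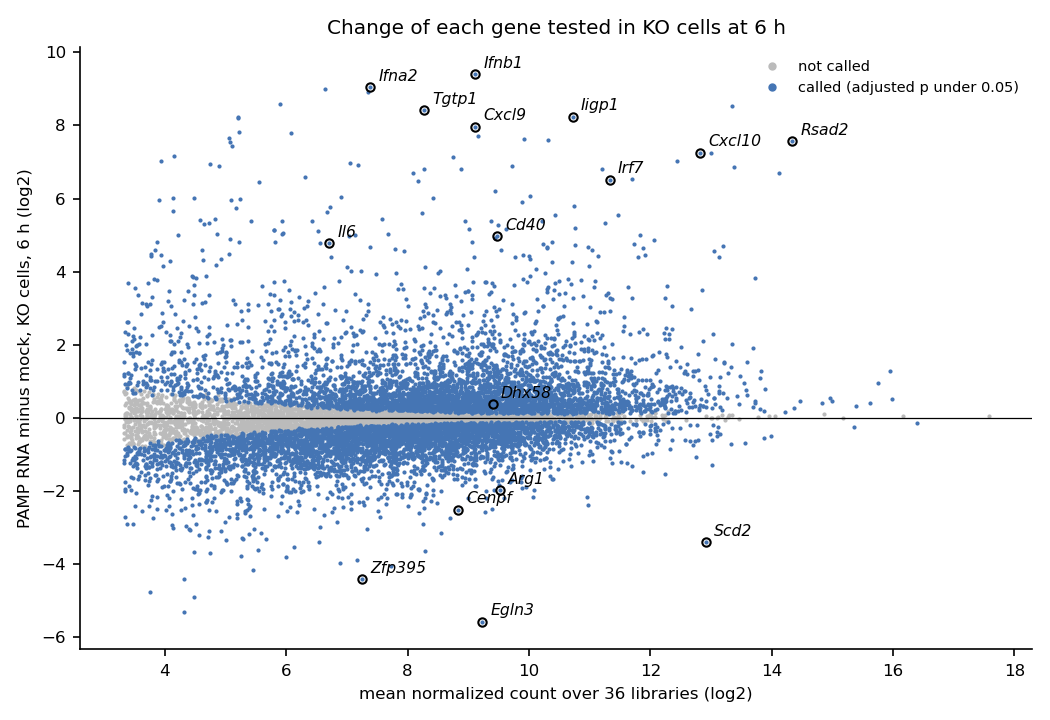
Change of each gene tested between PAMP RNA and mock KO cells at 6 h (y axis, log2) against its mean normalized count over 36 libraries (x axis, log2). Each point is 1 gene, blue where called at an adjusted p under 0.05 and grey where not. Ifnb1 stands highest at 9.40 among the labelled genes and Egln3 lowest at -5.59, while Dhx58 lies near 0 at 0.37.

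Interferon genes had almost no reads in mock cells and many with PAMP RNA. The list held 20 genes of type I and III interferons, of which 11 type I genes passed the filter on low counts. All 11 had a mean under 10 normalized counts over the 18 mock libraries of the study, so they passed only through PAMP libraries and had to be higher there. Their levels are therefore a description, and their number supports nothing. The median change of the 11 was 8.23, or 8.44 with the 5 genes that had no mock read set at their bound. The 9 genes not tested had KO means of at most 1.15 in mock and 62.7 in PAMP libraries at 6 h, and 3 of them had no read in the latter. Ifnb1, interferon beta (chromosome 4, 88522025 to 88522774, minus strand), had 0.846, 1.73 and 2.64 normalized counts in the mock libraries and 1788, 1681 and 1878 in the PAMP libraries. The change of 9.40 (SE 0.34) was the largest of the genes that met the naming rule. Interferon alpha genes lie beside Ifnb1 on chromosome 4. Ifna2 had 3 reads in the mock libraries together and 983, 941 and 1060.5 normalized counts with PAMP RNA, a ratio of 1157 (exact 95% interval 395 to 5612). Ifna5 had 1 mock read and 581, 627 and 696 with PAMP RNA, a ratio of 2215 (interval 397 to 87530). Ifna4 had 2 mock reads and 673, 724 and 809 with PAMP RNA, a ratio of 1283 (interval 355 to 10600). No PAMP library came near a mock library for any of them. Ifna1 had no mock read and 346, 377 and 428 normalized counts with PAMP RNA, at least 446-fold higher when the group's mock reads are set to a floor of 3. Ifna6 and Ifna9 were at least 348-fold and 347-fold higher, and Ifna15 and Ifnab at least 152-fold and 167-fold. Intervals and floors cover counting error only. The genes of the family are near-identical copies, so a value can hold reads of a relative. The interferon lambda genes Ifnl2 and Ifnl3, the type III interferons, had no read in the 6 libraries.

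The promoter of an interferon gene is shown because these genes had the largest changes described here. The sequence is that of RefSeq from 250 bases before to 50 after the start of Ifna4 on GRCm38.p6 (chr4:88841566-88841865, plus strand). Capitals mark GAAA followed, after any 2 bases, by a second GAAA, the core of the interferon-stimulated response element, searched on both strands.
Ifna4: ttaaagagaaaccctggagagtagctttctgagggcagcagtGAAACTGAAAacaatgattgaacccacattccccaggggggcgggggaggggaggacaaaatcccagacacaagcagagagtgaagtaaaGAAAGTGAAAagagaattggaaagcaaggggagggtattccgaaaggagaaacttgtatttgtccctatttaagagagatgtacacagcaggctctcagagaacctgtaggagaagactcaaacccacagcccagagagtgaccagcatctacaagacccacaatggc
Ifna4 held 2 such matches. The letters occurred in 10 of the 11 promoters of the tested interferon genes (90.9%), against 418 of 12026 promoters of genes tested that could be matched (3.48%). Promoters were found for 9450 of the 11853 genes tested, some with several. A match is a description of the letters and not a measured binding site.

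Most sensors and adaptors of the RNA pathway rose and a few fell. Of 34 genes of RNA and DNA sensing 24 rose and 4 fell (19 and 4 under all 3 scalings), with a median of 0.90. Of all genes tested 35.1% rose and 36.5% fell. Irf7, the transcription factor that drives interferon alpha genes, had 142, 156 and 158 normalized counts in mock and 13834, 14423 and 13740.1 in PAMP libraries. It rose by 6.52 (SE 0.18, adjusted p = 1.33e-33), the largest value of the list. Tlr3, the endosomal receptor for double-stranded RNA, went from 68.5, 76 and 90.8 to 2298, 2296 and 2103, a rise of 4.82 (SE 0.13). Ifih1, which encodes MDA5, went from 357, 375 and 397 to 8108, 7795 and 8318, a rise of 4.42 (SE 0.08). Ddx58, which encodes RIG-I, went from 441, 489.7 and 504 to 5181, 5048 and 5145, a rise of 3.42 (SE 0.09). Libraries of the 2 groups did not overlap for Ifih1 or Ddx58, the relatives of Dhx58, whereas they overlapped for Dhx58 itself. Among all genes tested they did not overlap for 73.0%. Smaller rises were seen for Eif2ak2, the RNA-dependent kinase PKR (2.75), Mb21d1, the DNA sensor cGAS (2.44), and the RIG-I ubiquitin ligases Rnf135 (2.00) and Trim25 (1.51). The endosomal receptors Tlr7 (1.88) and Tlr9 (1.84), their adaptor Myd88 (1.99), and the kinases Tbk1 (1.08) and Ikbke (0.92) rose too. Mavs, the adaptor of RIG-I and MDA5, went the other way, from 432, 502 and 429 to 255, 258 and 272, a change of -0.79 (SE 0.07, adjusted p = 3.09e-13). Nlrx1, a mitochondrial regulator of MAVS signalling, had the largest fall of the list, from 355, 358 and 411 to 201, 179 and 182 (adjusted p = 3.21e-14). Traf3, which links MAVS to the kinases, changed by -0.39 (SE 0.05, adjusted p = 1.63e-08). Irf3 (-0.03, adjusted p = 0.749) and Ticam1, the adaptor of TLR3 (-0.05, adjusted p = 0.531), did not pass. At equal totals both were called lower (-0.52 and -0.54), and Ticam1 also under quantile normalization (-0.17, adjusted p = 0.0434).

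Genes of interferon receptor signalling rose, most of all its feedback inhibitors. Of 26 genes 23 rose and 2 fell (17 and 2 under all 3 scalings), beside 35.1% and 36.5% of all genes tested. The median of the 26 was 1.01. Socs1, an inhibitor of JAK kinases, had 76.1, 81.2 and 92.5 in mock and 3990.3, 3046 and 3527 in PAMP libraries, the largest rise of the list at 5.38 (SE 0.14, adjusted p = 2.23e-34). Usp18, which removes ISG15 and blocks the receptor, went from 149.8, 186 and 196 to 6789, 6428 and 6084, a rise of 5.18 (SE 0.12). Stat2 rose by 3.28 (SE 0.08) and its partner Irf9 by 1.74 (SE 0.08). Irf1, a transcription factor of interferon gamma targets, rose by 2.65 (SE 0.06). The kinases Jak2 (1.19) and Tyk2 (1.18) rose by smaller amounts. Receptor chains differed from one another. Ifngr1, a chain of the interferon gamma receptor, had the largest fall of the list, from 1354, 1478 and 1398 to 505, 448 and 442, a change of -1.60 (SE 0.06, adjusted p = 1.82e-27). Its partner Ifngr2 changed by 0.63 (SE 0.06), but by 0.10 (adjusted p = 0.109) under quantile normalization. Ifnar1, a chain of the type I receptor, was higher by 0.49 (SE 0.04) on the deposited scaling, lower by a change of -0.12 under quantile normalization and level at equal totals. Stat5b was the other gene that fell, with -0.21 (SE 0.06, adjusted p = 0.00241).

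Effectors against viruses rose nearly as one group. Of 66 antiviral interferon-stimulated genes 64 rose and 1 fell (62 and 1 under all 3 scalings), beside 35.1% and 36.5% of all genes tested. The median of the 66 was 3.63. Together the list took 0.563% to 0.594% of the normalized counts of a mock library and 6.12% to 6.31% of a PAMP library. Ifi205, a member of the family of nucleic-acid-binding PYHIN proteins, had 19.5, 23.3 and 33.5 in mock and 5422, 5194 and 4689.7 in PAMP libraries, the largest rise of the list at 7.63 (SE 0.27, adjusted p = 1.47e-28). Rsad2, which encodes viperin, an enzyme that makes a chain-terminating nucleotide (chromosome 12, 26442746 to 26456452, minus strand), went from 439, 514 and 534 to 100994, 87861 and 93316, a rise of 7.57 (SE 0.14, adjusted p = 3.06e-40). Its neighbour Cmpk2, a nucleotide kinase, went from 196, 263 and 283 to 39943, 34090.4 and 37049.7, a rise of 7.24 (SE 0.15). PAMP and mock libraries lay far apart for both of these genes. Among RNA-binding IFIT proteins, I830012O16Rik (now Ifit3b) rose by 7.59 (SE 0.29), Ifit3 by 7.03 (SE 0.16), Ifit1 by 6.86 (SE 0.16) and Ifit2 by 6.69 (SE 0.13), and Gm14446 (now Ifit1bl1) by 8.54 (SE 0.19). The last went from 142, 157 and 173 to 60058, 58037 and 58408 normalized counts. IFIT genes share sequence, so reads can be divided wrongly among them. Isg20, an RNA exonuclease, rose by 7.15 (SE 0.23) and Isg15, a ubiquitin-like modifier, by 6.53 (SE 0.17). Oasl1 rose by 6.82 (SE 0.16) and Oas3, an enzyme that makes oligoadenylates, by 4.67 (SE 0.12). The GTPases Mx1 and Mx2 rose by 4.40 (SE 0.08) and 5.37 (SE 0.12). Zbp1, a sensor of Z-form nucleic acid, rose by 4.81 (SE 0.09), Bst2, which tethers budding virions, by 3.25 (SE 0.08), and the membrane protein Ifitm3 by 2.50 (SE 0.05). Ifitm2 did not pass on the deposited scaling (-0.08, adjusted p = 0.231) and was called lower under the others (-0.43 and -0.57).

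The promoters of Rsad2 (chr12:26456403-26456702, minus strand) and of the chemokine gene Cxcl10 (chr5:92348840-92349139, minus strand) are shown as those of the effector and chemokine described most fully, with the same spaced GAAA repeat or its reverse complement in capitals.
Rsad2: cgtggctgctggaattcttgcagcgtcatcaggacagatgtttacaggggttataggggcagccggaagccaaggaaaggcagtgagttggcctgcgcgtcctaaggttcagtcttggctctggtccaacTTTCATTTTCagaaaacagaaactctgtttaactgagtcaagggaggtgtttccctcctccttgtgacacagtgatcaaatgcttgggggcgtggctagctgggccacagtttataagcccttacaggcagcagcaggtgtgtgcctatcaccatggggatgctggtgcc
Cxcl10: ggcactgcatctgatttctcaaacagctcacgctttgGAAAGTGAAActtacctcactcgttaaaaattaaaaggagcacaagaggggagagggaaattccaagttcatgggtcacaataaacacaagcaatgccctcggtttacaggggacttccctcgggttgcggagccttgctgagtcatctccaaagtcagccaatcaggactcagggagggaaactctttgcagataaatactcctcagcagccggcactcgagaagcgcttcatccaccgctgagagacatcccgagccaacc
These letters stood in 29 of 68 promoters of the antiviral effectors (42.6%) and in 10 of 12 promoters of the GTPases described next (83.3%), against 3.48% of promoters of all genes tested. None of the 33 promoters of NF-kB genes held them. A share of 3.48% would give few matches among 33 promoters, so this absence shows no difference from all genes tested. The letters of an NF-kB site, searched in the same promoters, stood in 3 of these 33 (9.09%), against 56 of 12026 promoters of genes tested (0.466%). They also stood in 1 of the 12 promoters of the GTPases (8.33%) and in none of the 68 of the antiviral effectors.

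Guanylate-binding proteins and immunity-related GTPases, which attack membranes of intracellular pathogens, rose. The 18 genes tested of 19 were higher under all 3 scalings, beside 16.3% of all genes tested, with a median of 4.52. Of these, 2 passed the filter only through PAMP libraries, and the other 16 had a median of 4.07. Tgtp1 had 4.23, 4.32 and 1.76 in mock and 1649, 1384 and 1359 in PAMP libraries. Its rise of 8.42 (SE 0.41) was the largest of the list. Iigp1 went from 26.2, 32.8 and 28.2 to 9611, 8880.1 and 8775, a rise of 8.24 (SE 0.34). Tgtp2 rose by 6.89 (SE 0.32), Gbp4 by 5.54 (SE 0.11), Gbp5 by 5.34 (SE 0.08), Irgm1 by 4.39 (SE 0.10) and Gbp2 by 3.50 (SE 0.06). The smallest value was that of Gbp8 (2.77, SE 0.11). Olfr56, annotated across Tgtp1 and Tgtp2 on the opposite strand, rose by 5.76 (SE 0.28), and its reads cannot be told apart from theirs. Other interferon-stimulated genes among the largest rises were Apol9b, an apolipoprotein L gene (7.79, SE 0.44), and Ms4a4c, a membrane protein gene (7.70, SE 0.28). Apol9b went from 2.54, 1.73 and 0 to 484, 468 and 462 and Ms4a4c from 11, 20.7 and 21.1 to 3803, 3704 and 3687, without overlap.

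**Figure D2:**
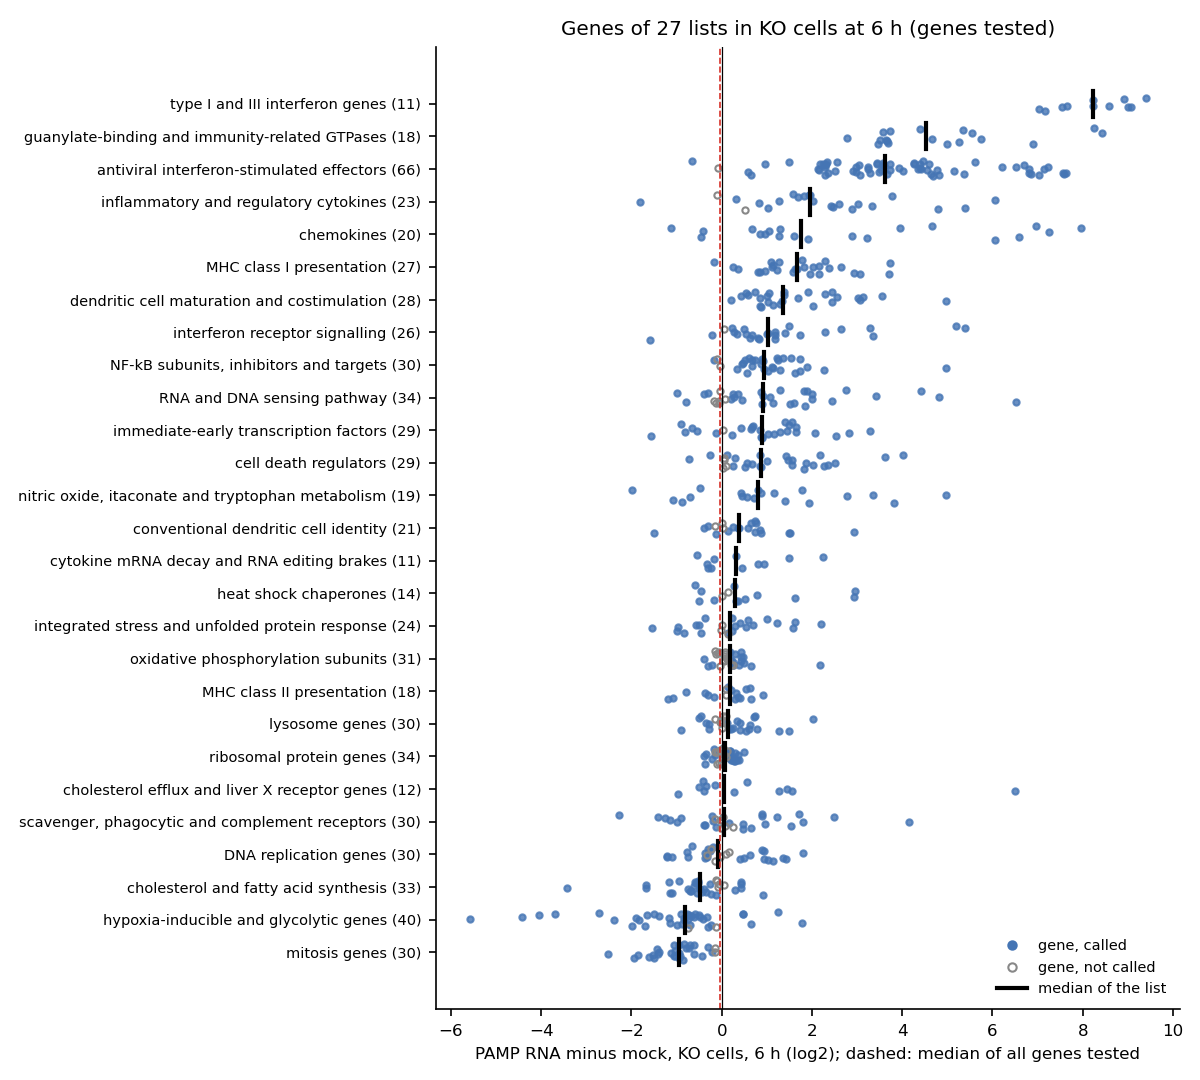
Change between PAMP RNA and mock KO cells at 6 h (x axis, log2) for the genes tested of 27 lists, ordered by the list's median (black bar). Filled points are called genes, open points are not called, the number of genes is in brackets, and the dashed line is the median of all genes (-0.03). Interferon genes (median 8.23), GTPases (4.52) and antiviral effectors (3.63) stand at the top, and hypoxia genes (-0.80) and mitosis genes (-0.95) at the bottom.

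Chemokines for T cells, NK cells and monocytes rose, and a neutrophil chemokine fell. Of 20 chemokine genes 17 rose and 3 fell (15 and 3 under all 3 scalings), beside 35.1% and 36.5% of all genes tested. The median of the 20 was 1.75. The mock mean was under 10 for 4 of them, and of the other 16 genes 13 rose and 3 fell, with a median of 1.44. Cxcl9, a ligand of CXCR3 on activated T cells, had 8.46, 8.64 and 10.6 in mock and 2808, 2411 and 2463 in PAMP libraries. Its rise of 7.97 (SE 0.34) was the largest of the list. Cxcl10, a ligand of the same receptor (chromosome 5, 92346638 to 92348889, minus strand), went from 124, 139.9 and 149 to 22427, 20500.3 and 20607, a rise of 7.26 (SE 0.14, adjusted p = 1.51e-39). Cxcl11, the remaining ligand, rose by 6.97 (SE 0.37). The monocyte chemokines Ccl12 and Ccl7 rose by 6.60 (SE 0.37) and 6.05 (SE 0.22), and Ccl2 by 3.95 (SE 0.13). The CC chemokines Ccl4, Ccl3 and Ccl5 rose by 4.66 (SE 0.10), 3.21 (SE 0.09) and 2.89 (SE 0.05). Ccl22, a chemokine of mature dendritic cells, rose from 6613, 6379 and 7222 to 24680.1, 26229.5 and 24967, by 1.91 (SE 0.05). The neutrophil chemokines parted: Cxcl2 rose by 1.60 (SE 0.11), whereas Cxcl3 had the largest fall of the list, from 591, 537 and 642 to 278, 268 and 259, a change of -1.13 (SE 0.08, adjusted p = 1.2e-16).

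Cytokine genes rose as well. Of 23 inflammatory and regulatory cytokines 20 rose and 1 fell (18 and 1 under all 3 scalings), beside 35.1% and 36.5% of all genes. The median of the 23 was 1.95. The mock mean was under 10 for 3 of them, and of the other 20 genes 17 rose and 1 fell, with a median of 1.88. Tnfsf10, the death ligand TRAIL, had 52.5, 67.4 and 63.4 in mock and 4345, 3937 and 4084 in PAMP libraries, the largest rise of the list at 6.06 (SE 0.14, adjusted p = 9.45e-37). Il27, a subunit of a cytokine that acts on T cells, went from 9.31, 12.1 and 7.05 to 434, 419 and 443, a rise of 5.40 (SE 0.34). Il6 went from 7.61, 5.18 and 14.1 to 245, 225 and 302, a rise of 4.78 (SE 0.29). Tnf, the central inflammatory cytokine, went from 602, 581 and 562 to 5831, 5696 and 6141, a rise of 3.34 (SE 0.08). Il15, a growth factor of NK and memory T cells, rose by 3.02 (SE 0.11), and Il12b, a subunit of IL-12, by 2.60 (SE 0.18). Of the interleukin 1 family, the receptor antagonist Il1rn rose by 2.42 (SE 0.05), Il18 by 2.47 (SE 0.23) and Il1b by 1.58 (SE 0.15). Tnfsf13b, the B cell survival factor BAFF, was the one fall, from 66, 72.5 and 52.9 to 22.6, 12.9 and 17.8, a change of -1.81 (SE 0.27, adjusted p = 6.47e-08).

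The NF-kB pathway and immediate-early genes rose by less. Of all genes tested 35.1% rose and 36.5% fell. Of 30 genes of NF-kB subunits, inhibitors and targets 27 rose and 1 fell (20 and 1 under all 3 scalings), with a median of 0.93. Ptgs2, the inducible cyclooxygenase, had 22.8, 16.4 and 23.8 in mock and 724, 657 and 657 in PAMP libraries, the largest rise of the list at 4.97 (SE 0.31, adjusted p = 1.94e-19). Bcl2a1d, a survival protein, rose by 2.27 (SE 0.10) and Traf1, a signalling adaptor, by 1.62 (SE 0.07). The feedback inhibitors Nfkbiz, Tnfaip3 and Nfkbia rose by 1.74 (SE 0.10), 1.22 (SE 0.06) and 0.89 (SE 0.06), and the subunits Rel and Nfkb1 by 0.93 (SE 0.06) and 0.92 (SE 0.05). The lowest value was that of the kinase Ikbkb (-0.18, SE 0.07, adjusted p = 0.0299), whose call was lost without KO PAMP replicate 1 (-0.09, adjusted p = 0.299), KO mock replicate 1 (-0.16, adjusted p = 0.0862) or KO mock replicate 3 (-0.18, adjusted p = 0.0638). Among immediate-early genes, 29 of which were tested, 22 rose and 6 fell (17 and 6 under all 3 scalings), with a median of 0.88. Dusp2, a phosphatase of MAP kinases, had the largest rise of the list, from 18.6, 13.8 and 12.3 to 168, 132 and 163, 3.29 (SE 0.17, adjusted p = 2.13e-22). The transcription factor genes Egr1, Fos and Atf3 rose by 2.82 (SE 0.09), 2.06 (SE 0.10) and 1.40 (SE 0.05). Fosl1, a partner of JUN, had the largest fall, from 21.2, 19.9 and 33.5 to 12, 7.16 and 4.75, -1.57 (SE 0.32, adjusted p = 3.25e-05). Klf4 and Klf2, factors that restrain myeloid activation, fell by changes of -0.81 (SE 0.09) and -0.55 (SE 0.11), and Ier3 by -0.90 (SE 0.15).

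Maturation genes of dendritic cells rose together. All 28 genes tested were higher, beside 35.1% of all genes, and 23 of the 28 were so under all 3 scalings. The median of the 28 was 1.35 (1.34 without the 1 gene whose mock mean was under 10). Cd40, the receptor through which T cells license dendritic cells, had 110, 93.3 and 84.6 in mock and 3104, 2945 and 3066 in PAMP libraries, the largest rise of the list at 4.98 (SE 0.14, adjusted p = 2.61e-32). Il15ra, which presents interleukin 15, rose from 96.5, 95 and 86.4 to 1069, 1079 and 1147, by 3.56 (SE 0.10). Cd86, a costimulatory ligand of CD28, rose from 443, 422 and 413 to 3795, 3442 and 3527, by 3.07 (SE 0.07). Cd80, the second such ligand, rose by 1.68 (SE 0.09), Cd83 by 1.34 (SE 0.06), and Cd70, a costimulator through CD27, by 3.14 (SE 0.44). The inhibitory ligands Cd274 (PD-L1) and Cd200 rose by 2.44 (SE 0.06) and 2.56 (SE 0.12). Fscn1, an actin bundler of mature dendritic cells, and Ccr7, the receptor for lymph node homing, rose by 2.44 (SE 0.07) and 1.38 (SE 0.05).

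Genes of MHC class I presentation rose, while those of class II differed among themselves and with the scaling. Of 27 class I genes 26 rose and 1 fell (24 and 1 under all 3 scalings), beside 35.1% and 36.5% of all genes. The median of the 27 was 1.66. Nlrc5, the class I transactivator, had 262, 291 and 250.2 in mock and 3493, 3509 and 3609 in PAMP libraries, the largest rise of the list at 3.72 (SE 0.10, adjusted p = 5.79e-34). The nonclassical gene H2-T24 rose by 3.71 (SE 0.09), the peptide transporter Tap1 by 2.93 (SE 0.06), and the immunoproteasome subunits Psmb9 and Psmb10 by 2.38 (SE 0.09) and 2.28 (SE 0.08). Tap1 and Psmb9 overlap on opposite strands. Tapbp, which loads peptides, rose by 2.16 (SE 0.05), H2-K1 by 1.22 (SE 0.05) and B2m, the light chain, by 1.08 (SE 0.05). Canx, a chaperone, was the one fall (-0.18, SE 0.05, adjusted p = 0.00141). Of 18 class II genes 10 rose and 6 fell on the deposited scaling, but 1 rose and 5 fell under all 3. The median was 0.18 on the deposited scaling and turned to -0.38 and -0.31 under quantile normalization and equal totals. H2-Ab1, a class II beta chain, had 6461, 6268 and 6579.6 in mock and 8140.2, 8071 and 8530.3 in PAMP libraries, a change of 0.36 (SE 0.05) that turned to -0.35 and -0.13 under the other scalings. Cd74, the invariant chain, changed by 0.14 (SE 0.05), -0.71 and -0.35 under the 3 scalings. The first of these was lost without KO mock replicate 1 (0.12, adjusted p = 0.0648). H2-Oa, a subunit of a peptide exchange inhibitor, had the largest rise (0.90, SE 0.14), and Rfxap, a subunit of the class II transcription factor RFX, the largest fall, from 194, 164 and 206 to 106, 67.3 and 76, -1.19 (SE 0.12, adjusted p = 7e-12).

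Regulators of cell death rose on both sides of survival. Of 29 genes 23 rose and 2 fell (17 and 2 under all 3 scalings), beside 35.1% and 36.5% of all genes tested. The median of the 29 was 0.88. Xaf1, an antagonist of the caspase inhibitor XIAP, had 77.8, 90.7 and 85.5 in mock and 1393, 1331 and 1397 in PAMP libraries, the largest rise of the list at 4.01 (SE 0.16, adjusted p = 1.05e-26). The inflammatory caspases Casp4 and Casp1 rose by 3.62 (SE 0.11) and 2.17 (SE 0.08), their substrate Gsdmd, which forms pores, by 1.55 (SE 0.07), and Mlkl, the effector of necroptosis, by 2.51 (SE 0.08). Casp8, an initiator caspase, rose by 1.42 (SE 0.06). The inhibitors Bcl2l1 (BCL-XL) and Cflar (FLIP) rose by 2.35 (SE 0.06) and 2.27 (SE 0.06). Tnfrsf10b, the receptor of TRAIL, had the largest fall, from 41.5, 37.1 and 59.9 to 27.9, 30.1 and 23.8, -0.72 (SE 0.17, adjusted p = 0.000302).

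Genes induced by low oxygen fell, and in mock cells their means were mostly higher at 6 h than at 1 h. Of 40 hypoxia-inducible and glycolytic genes 5 rose and 33 fell (3 and 32 under all 3 scalings), beside 35.1% and 36.5% of all genes. The median of the 40 was -0.80. The list was chosen with earlier results of these data known. It holds Egln3, Zfp395 and Selenbp1, the largest falls by the naming rule, so its counts are a description. The list took 1.97% to 2.03% of the normalized counts of a mock library and 0.954% to 0.994% of a PAMP library. In mock cells the mean at 6 h was above that at 1 h for 39 of the 40 genes. A higher mock mean at 6 h was not particular to this list. It was seen for 58 of 66 antiviral effectors and 23 of 27 class I genes. Other lists differed, with 13 of 30 mitosis genes and 4 of 33 lipid synthesis genes. Of the 33 genes that fell, 10 were also below the 1 h mock mean and 23 were not, whereas 85.0% of all genes called lower were below it. Egln3, a prolyl hydroxylase that marks HIF1A for decay (chromosome 12, 54178981 to 54203860, minus strand), had 2128, 2257 and 2146 in mock and 39.9, 37.2 and 58.2 in PAMP libraries, the largest fall of all genes named at -5.59 (SE 0.19, adjusted p = 9.78e-30). Its KO mock mean was 49.2 ± 6.39 (SD, n = 3) at 1 h and 1509 ± 71.2 at 3 h, so the PAMP level at 6 h was near that of mock cells at 1 h. Egln1, a related hydroxylase, went from 2512, 2720.3 and 2735 to 781, 604 and 628, -1.99 (SE 0.09). Zfp395, a zinc finger gene, went from 422, 412 and 414 to 17.3, 21.5 and 16.6, a change of -4.43 (SE 0.17, adjusted p = 9.65e-28). Selenbp1, a methanethiol oxidase, went from 882, 858 and 858 to 51.9, 54.4 and 47.5, a change of -4.05 (SE 0.18, adjusted p = 5.44e-25). The 2 groups lay more than 10-fold apart for each of Egln3, Zfp395 and Selenbp1. P4ha2, a collagen hydroxylase, changed by -3.70 (SE 0.43). Ddit4, an inhibitor of mTOR signalling, changed by -2.71 (SE 0.23) and Ero1l, an oxidase of protein folding, by -2.38 (SE 0.13). Bnip3, a mitophagy receptor, had 2715, 2776 and 2614 in mock and 936, 776 and 875 in PAMP libraries (-1.65, SE 0.12) against 232 ± 0.569 in mock cells at 1 h. Pdk1, which holds pyruvate out of the mitochondrion, changed by -1.71 (SE 0.08) and the glycolytic enzyme Gpi1 by -1.50 (SE 0.07). Ldha, lactate dehydrogenase, and Slc2a1, a glucose transporter, changed by -0.25 (SE 0.06) and -0.42 (SE 0.12). Hif1a itself had the largest rise of the list, from 2299, 2287 and 2233 to 8629.7, 7680.5 and 7296, 1.79 (SE 0.05, adjusted p = 2.07e-33), and Plin2, a lipid droplet protein, rose by 1.26 (SE 0.05).

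The promoter of Egln3 (chr12:54203825-54204124, minus strand) is shown as that of the gene with the largest fall, with ACGTG, the core of the hypoxia response element, or its reverse complement in capitals.
Egln3: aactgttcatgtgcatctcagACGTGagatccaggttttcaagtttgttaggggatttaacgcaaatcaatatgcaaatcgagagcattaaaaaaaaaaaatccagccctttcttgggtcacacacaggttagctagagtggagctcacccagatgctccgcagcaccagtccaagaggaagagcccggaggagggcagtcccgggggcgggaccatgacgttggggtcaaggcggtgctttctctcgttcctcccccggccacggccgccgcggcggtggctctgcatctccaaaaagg
ACGTG stood in 30 of 51 promoters of the hypoxia list (58.8%), against 3090 of 12026 promoters of genes tested (25.7%).

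**Figure D3:**
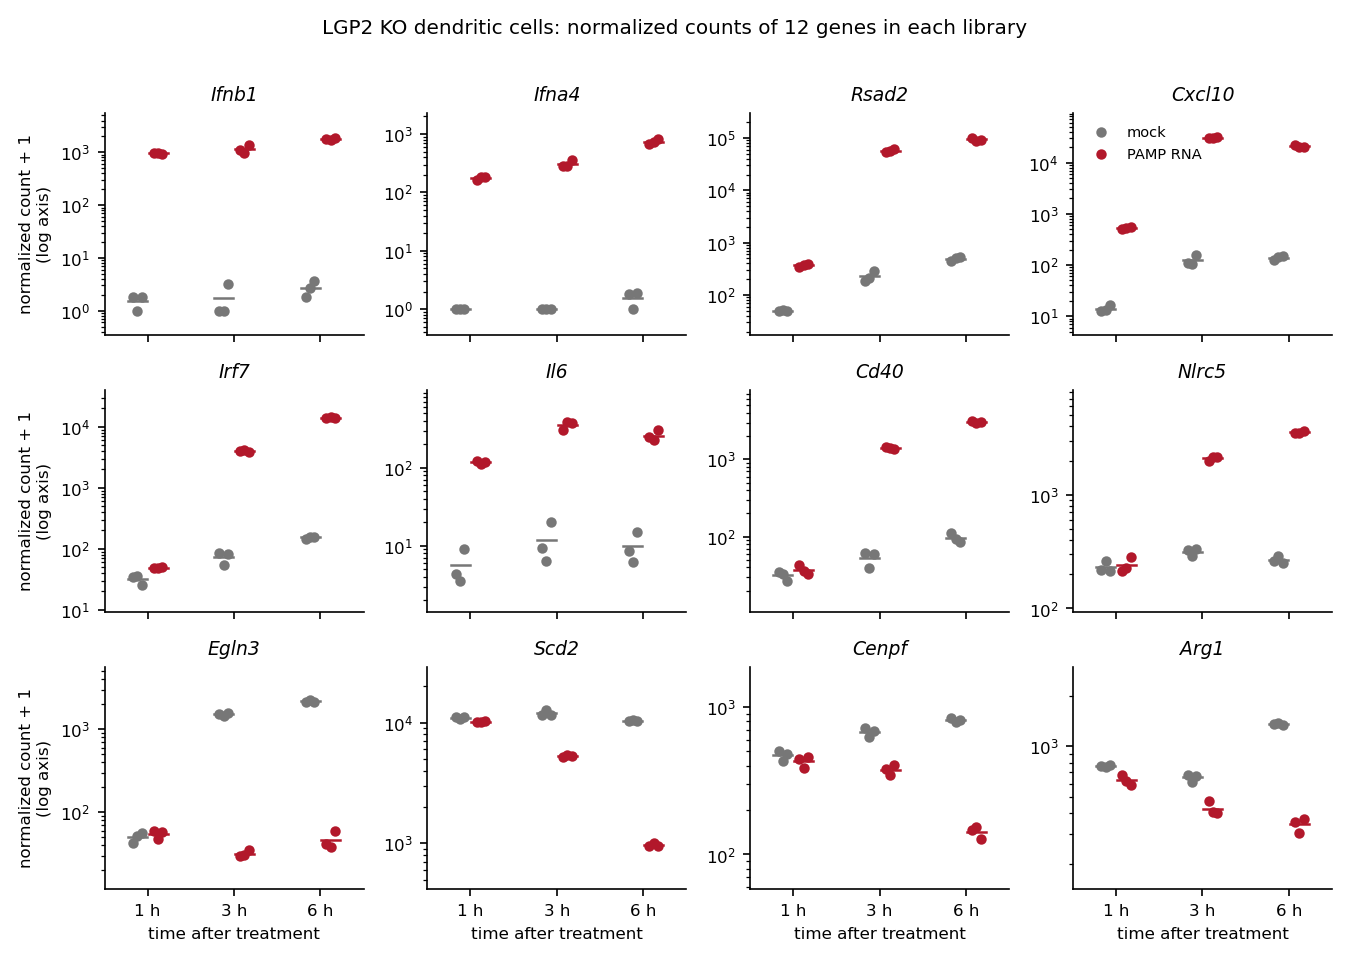
Normalized count plus 1 (y axis, log scale) of 12 genes in each KO library at 1, 3 and 6 h (x axis), grey for mock and red for PAMP RNA, with the mean of 3 libraries as a bar. At 6 h the PAMP libraries lie above the mock libraries for Ifnb1, Ifna4, Rsad2, Cxcl10, Irf7, Il6, Cd40 and Nlrc5 and below them for Egln3, Scd2, Cenpf and Arg1. Egln3 rises over time in mock cells, from a mean of 49.2 at 1 h to 2177 at 6 h.

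Lipid synthesis genes fell. Of all genes tested 35.1% rose and 36.5% fell. Of 33 genes of cholesterol and fatty acid synthesis 5 rose and 23 fell (1 and 23 under all 3 scalings), with a median of -0.48. Of the 23, 22 were also below the mock mean of 1 h, beside 85.0% of all genes called lower. Scd2, a desaturase that makes monounsaturated fatty acids (chromosome 19, 44293674 to 44306864, plus strand), had 10259.6, 10523 and 10366 in mock and 952, 999 and 958 in PAMP libraries, the largest fall of the list at -3.42 (SE 0.08, adjusted p = 7.76e-37). Its mock mean had been 11031 ± 242 at 1 h. Mir5114 (-3.65, SE 0.12) lies inside Scd2 on the same strand, so its reads cannot be told apart from those of Scd2. Fatty acid enzymes followed: Elovl6 changed by -1.68 (SE 0.11), Fads1 by -1.67 (SE 0.08) and Fasn, fatty acid synthase, by -1.14 (SE 0.07). Of the cholesterol enzymes, Sqle changed by -1.17 (SE 0.06) and Dhcr7 by -1.10 (SE 0.08). Idi1 had the largest rise (0.91, SE 0.05). Lpin1, a phosphatidate phosphatase and transcriptional coactivator, fell from 481, 471 and 435 to 50.5, 48.7 and 52.3, -3.17 (SE 0.10, adjusted p = 1.38e-30). Of 12 genes of cholesterol efflux and liver X receptors 6 rose and 6 fell (4 and 5 under all 3 scalings). Ch25h, which makes the antiviral 25-hydroxycholesterol, went from 21.2, 11.2 and 11.5 to 1491, 1253 and 1316, a rise of 6.49 (SE 0.27, adjusted p = 8.22e-26). Nr1h3, a liver X receptor, rose by 1.55 (SE 0.11), while Apoe, its target, had the largest fall (-0.96, SE 0.09).

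Other genes with large falls belong to no list. Tcp11l2 went from 308, 321 and 293 to 21.3, 22.9 and 13.1, a change of -3.98 (SE 0.17, adjusted p = 1.28e-25). Rnf150, a RING finger gene, went from 220, 255 and 211 to 14.6, 12.9 and 15.4, -3.91 (SE 0.13). Mturn went from 254, 274 and 259 to 22.6, 25.8 and 22.6, -3.42 (SE 0.13). These 3 genes all fell below the KO mock means of 1 h, which were 127, 95.3 and 42.3. Nat8l, which makes N-acetylaspartate, changed by -3.56 (SE 0.20), and Eef2k, the kinase of translation elongation factor 2, by -3.32 (SE 0.20).

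Genes of mitosis fell. Of 30 mitosis genes none rose and 28 fell, all 28 under all 3 scalings, with a median of -0.95. Cenpf, a kinetochore protein (chromosome 1, 189640606 to 189688086, minus strand), had 848, 791 and 813 in mock and 146, 153 and 127 in PAMP libraries, the largest fall of the list at -2.52 (SE 0.08, adjusted p = 2.62e-30). Anln, a protein of the cleavage furrow, changed by -1.94 (SE 0.10), Cdc20, an activator of the anaphase-promoting complex, by -1.85 (SE 0.09), the kinase Plk1 by -1.05 (SE 0.10) and the proliferation marker Mki67 by -1.04 (SE 0.07). Of the 28 genes 27 were also below the 1 h mock mean, beside 85.0% of all genes called lower. Mad2l1 (-0.14, adjusted p = 0.127) and Nusap1 (-0.15, adjusted p = 0.0727) did not pass, and both were called lower under the other scalings. Of 30 DNA replication genes 11 rose and 12 fell (8 and 10 under all 3 scalings), near the 35.1% and 36.5% of all genes tested. Rfc3, a clamp loader subunit, had the largest rise (1.81, SE 0.16), followed among those named by Cdt1, a licensing factor (1.35, SE 0.09), and Pcna, the sliding clamp (1.02, SE 0.05). Pold1, a polymerase subunit, had the largest fall (-1.22, SE 0.16), with E2f1, a driver of S phase (-1.21, SE 0.10), and Rrm2, a nucleotide reductase (-1.11, SE 0.10), close to it. In the promoter of Cenpf (chr1:189688037-189688336, minus strand), shown as that of the leading mitosis gene, capitals mark TTTGAA, the cell cycle homology region of genes expressed late in the cycle, or its reverse complement.
Cenpf: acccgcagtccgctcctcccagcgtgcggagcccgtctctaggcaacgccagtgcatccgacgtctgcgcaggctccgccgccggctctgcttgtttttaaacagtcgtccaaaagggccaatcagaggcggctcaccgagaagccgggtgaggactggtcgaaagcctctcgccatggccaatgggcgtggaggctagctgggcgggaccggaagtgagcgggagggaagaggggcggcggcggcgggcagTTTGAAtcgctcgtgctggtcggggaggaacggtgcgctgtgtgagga
TTTGAA stood in 21 of 27 promoters of the mitosis list (77.8%), against 1470 of 12026 promoters of genes tested (12.2%). It also stood in 5 of 12 promoters of the GTPases (41.7%) and 16 of 68 of the antiviral effectors (23.5%), which rose. The shares were 9.09% for the interferon genes, 12.1% for the NF-kB genes and 9.8% for the hypoxia list.

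Of 19 genes of nitric oxide, itaconate and tryptophan metabolism 14 rose and 5 fell (10 and 4 under all 3 scalings), with a median of 0.79. The mock mean was under 10 for 1 of them, and of the other 18 genes 13 rose and 5 fell, with a median of 0.76. Ptgs2, given above, led the list. Irg1 (now Acod1), which makes itaconate, had 3953, 3839.6 and 4151 in mock and 55984, 57264 and 55329.8 in PAMP libraries, a rise of 3.82 (SE 0.06). Nos2, the inducible nitric oxide synthase, went from 31.3, 32 and 30.8 to 366, 296 and 331, 3.35 (SE 0.30), and Gch1, which makes its cofactor, rose by 2.77 (SE 0.10). Arg1, arginase, which uses the same substrate as Nos2, had the largest fall of the list, from 1354, 1371 and 1344 to 356, 305 and 367, -1.99 (SE 0.10, adjusted p = 4.2e-22). Hmox1, heme oxygenase, fell by a change of -1.09 (SE 0.07). Of 30 scavenger, phagocytic and complement receptors 13 rose and 11 fell (9 and 11 under all 3 scalings), also near the 35.1% and 36.5% of all genes. Fcgr1, the high-affinity IgG receptor, had 404, 438 and 384 in mock and 7679, 7121 and 6924 in PAMP libraries, the largest rise at 4.14 (SE 0.07, adjusted p = 3.23e-42). Fcgr4, another activating receptor, rose by 2.49 (SE 0.11), while the inhibitory Fcgr2b fell by a change of -1.41 (SE 0.07). The receptors for dying cells Mertk and Axl rose by 1.79 (SE 0.07) and 1.53 (SE 0.04). Cd163, the haemoglobin scavenger, had the largest fall, from 165, 163 and 140.1 to 25.3, 32.9 and 36.8, -2.28 (SE 0.15, adjusted p = 2.57e-18). The lectin Clec10a and the scavenger receptor Lrp1 fell by changes of -1.15 (SE 0.10) and -1.25 (SE 0.06). Of 21 genes of conventional dendritic cell identity 14 rose and 4 fell (8 and 4 under all 3 scalings). Xcr1, the receptor of cross-presenting dendritic cells, had the largest rise, from 11, 13.8 and 12.3 to 91.8, 109 and 103, 2.94 (SE 0.24). The factors Irf8 and Zbtb46 rose by 1.49 (SE 0.05) and 0.76 (SE 0.08), Sirpa changed by -0.40 (SE 0.05), and Kit had the largest fall (-1.51, SE 0.15).

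The KO response at 6 h was compared with that at 3 h. The responses at 3 and 6 h have their own mock libraries and share none. Of the 4162 genes that rose at 6 h 2523 (60.6%) had risen at 3 h, which was 89.6% of the 2817 genes higher at 3 h. Of the 4332 that fell 2487 (57.4%) had fallen at 3 h, 78.1% of the 3183 lower then. The response at 6 h exceeded that at 3 h for 2697 genes (22.8%) and was below it for 2141 (18.1%), in edgeR's quasi-likelihood test for 2768 and 1969. Under all 3 scalings the numbers were 1231 (10.4%) and 1880 (15.9%). For the interferon genes the result depended on the test. limma called 9 of 11 larger at 6 h, also under all 3 scalings, with a median difference of 3.57 against 0.02 for all genes. DESeq2 called 4 and edgeR none, and edgeR gave no unadjusted p under 0.05 either. In PAMP cells Ifna1 had 46.6 ± 4.37 normalized counts (SD, n = 3) at 3 h and 383 ± 41.3 at 6 h. Ifna5 had 78.2 ± 6.94 and 635 ± 57.7, and Ifna15 0.328 ± 0.568 and 131 ± 4.21. Neither Ifna1 nor Ifna15 had a read in mock cells at 3 or 6 h, and a difference of changes against such a base depends on the pseudocount. In limma Ifna1 differed by 3.01 (SE 0.43) and Ifna5 by 2.71 (SE 0.42), with an adjusted p of 1 and 0.74 in edgeR and 0.159 and 0.375 in DESeq2. Ifnb1 (-0.20, adjusted p = 0.781) did not pass. The response of Ptgs2 was larger by 2.57 (SE 0.43), of Slco3a1, an organic anion transporter, by 2.57 (SE 0.12), of Edn1, the peptide endothelin 1, by 2.48 (SE 0.36), and of Ccl7 by 2.38 (SE 0.32). Slco3a1 had 133, 158 and 169 in mock and 1652, 1543 and 1564 in PAMP libraries at 6 h, and Edn1 14.4, 7.77 and 14.1 and 642, 578 and 664.

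The differences of effectors and GTPases between the times were small in the median. Of all genes tested 22.8% had a larger and 18.1% a smaller response at 6 h. Of 66 antiviral effectors 29 had a larger and 7 a smaller response at 6 h (16 and 7 under all 3 scalings), with a median difference of 0.25. Of 18 GTPases 5 were larger and 2 smaller (1 and 2 under all 3 scalings), with a median of 0.07. Cxcl10 was lower by a difference of -0.71 (SE 0.20) and Socs1 by -0.75 (SE 0.20). Of 28 maturation genes 22 had a larger response at 6 h (15 under all 3 scalings), with a median of 0.62. Cd86 differed by 1.99 (SE 0.10) and Fscn1 by 1.43 (SE 0.10). Of 27 class I genes 24 were larger (13 under all 3 scalings), with a median of 0.66. Bcl2l1, which was not called at 3 h (0.10), differed by 2.24 (SE 0.09). The response at 6 h was below that at 3 h for 25 of 30 mitosis genes (24 under all 3 scalings, median -0.72), of which list 20 genes were lower and 1 higher at 3 h. It was below that at 3 h for 21 of 33 lipid synthesis genes (20 under all 3 scalings, median -0.40), of which list 11 were lower and 6 higher at 3 h. Named for large differences downward were Tcp11l2 (-2.99, SE 0.24), Rnf150 (-2.81, SE 0.19), Mir5114 (-2.53, SE 0.17), Aff3 (-2.50, SE 0.21) and Mturn (-2.49, SE 0.19). Aff3, a nuclear factor of lymphoid and myeloid cells, was higher with PAMP RNA at 3 h (0.40, SE 0.15, adjusted p = 0.0203) and lower at 6 h, with 71.9, 79.5 and 75.8 in mock and 14.6, 18.6 and 17.8 in PAMP libraries (-2.10, SE 0.15). Of 40 hypoxia genes 9 had a higher and 14 a lower response at 6 h than at 3 h (8 and 14 under all 3 scalings). The higher ones were near the 22.8% of all genes tested. Egln3 did not differ by the test (-0.02, interval -0.55 to 0.52), while Ankrd37, a HIF target, had a change of -3.86 at 3 h and -1.90 at 6 h, and Bnip3 of -2.71 and -1.65, both differences called (adjusted p = 8.05e-06 and 1.09e-06).

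**Figure D4:**
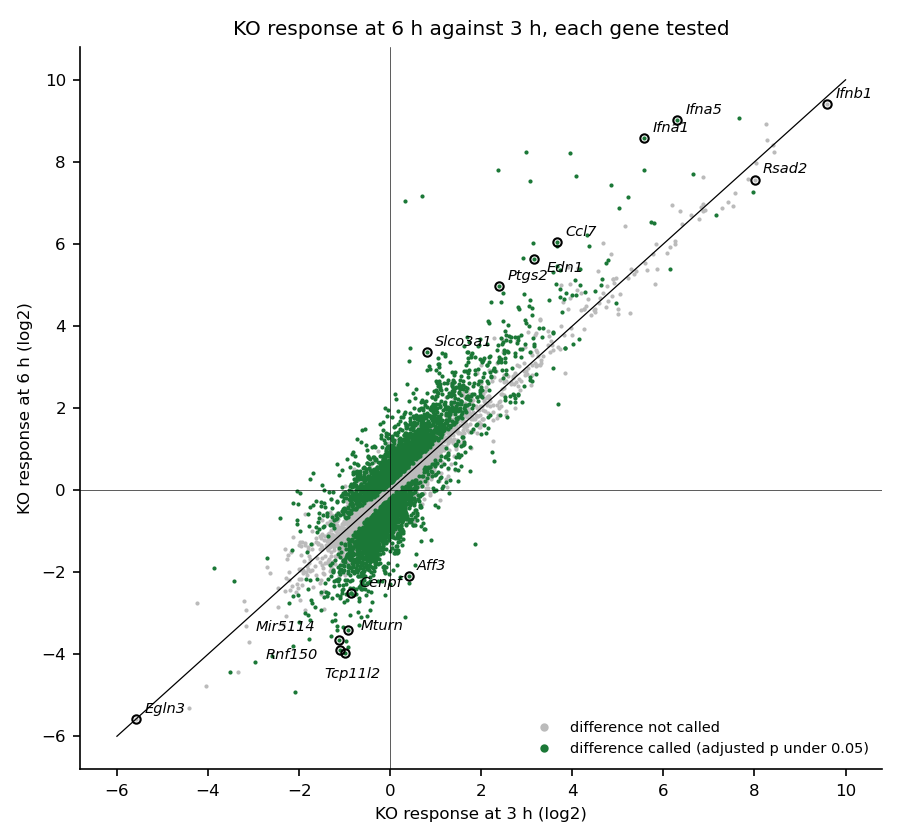
KO response at 6 h (y axis, log2) against the KO response at 3 h (x axis, log2), 1 point for each gene tested, green where the difference was called. The diagonal marks equal responses. Green marks limma's calls, of which those of Ifna1 and Ifna5 were not made by edgeR or DESeq2. Both genes lie above the diagonal and Tcp11l2, Rnf150 and Aff3 below it, while Ifnb1 and Egln3 lie close to it.

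The WT response at 6 h was used to see where the KO response differs. The WT response called 65.4% of genes. Of the genes that rose in KO cells 3495 (84.0%) rose in WT cells, and of those that fell 3512 (81.1%) fell. The 2 responses share no library, but each difference below reuses the KO libraries. The KO response exceeded the WT response for 791 genes (6.67%) and was below it for 452 (3.81%), and under all 3 scalings for 310 (2.62%) and 361 (3.05%). DESeq2 called 287 genes below the WT response, and the fit with only the libraries of the contrast 277. WT mock replicate 1 of 6 h lay apart from its 2 replicates, at -9.37 on the first principal component of all libraries against -15.55 and -14.55. Without it 614 genes were above and 306 below the WT response. Of 66 antiviral effectors 41 had a larger and none a smaller KO response (19 and 0 under all 3 scalings), with a median difference of 0.49 against 0.02 for all genes. Without WT mock replicate 1 the number was 27, with a median of 0.34. Mx1 differed by 0.94 (SE 0.11, adjusted p = 6.94e-08), Usp18 by 0.94 (SE 0.17), Cxcl10 by 1.17 (SE 0.20) and Ccl5 by 0.89 (SE 0.08). Of 18 GTPases 11 were larger (9 under all 3 scalings, 8 without that library), among them Gbp4 at 1.15 (SE 0.15). None of the 11 interferon genes passed in limma, edgeR or DESeq2 (1, 0 and 0 at an unadjusted p under 0.05), with a median of 0.78 in limma. The interval of the difference was -1.29 to 0.64 for Ifnb1 and -0.40 to 1.10 for Ifna4.

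Among the genes named for the largest differences from WT, 6 had a larger KO response. Serpina3g, a protease inhibitor, had 234, 225 and 233 in KO mock and 11223, 10936 and 10302 in KO PAMP libraries, and its KO response exceeded that of WT by 1.35 (SE 0.11, adjusted p = 7.29e-13). Ctla2b, a cathepsin inhibitor gene, differed by 1.29 (SE 0.32, adjusted p = 0.00592). Ptgs2 differed by 1.47 (SE 0.43, adjusted p = 0.0201), a call lost without KO mock replicate 2 (1.31, adjusted p = 0.0673) or without either WT PAMP replicate 2 (1.39, adjusted p = 0.0509) or replicate 3 of WT mock (1.24, adjusted p = 0.0754), and under quantile normalization (1.31, adjusted p = 0.0534). Nos2 differed by 1.44 (SE 0.43, adjusted p = 0.0212), a call lost without KO PAMP replicate 1 (1.37, adjusted p = 0.0518), WT PAMP replicate 3 (1.19, adjusted p = 0.0836) and also without replicate 3 of WT mock (1.13, adjusted p = 0.104). Ch25h differed by 1.40 (SE 0.39, adjusted p = 0.0122), a call lost without WT mock replicate 1 (0.93, adjusted p = 0.0941) and under quantile normalization (1.09, adjusted p = 0.0719). Olfr56, which overlaps Tgtp1 and Tgtp2, differed by 1.33 (SE 0.40, adjusted p = 0.0222), a call lost without KO PAMP replicate 2 (1.26, adjusted p = 0.0566), KO mock replicate 2 (1.22, adjusted p = 0.0647), WT PAMP replicate 2 (1.28, adjusted p = 0.0523) and also without replicate 1 of WT mock (1.18, adjusted p = 0.0728). The calls of Ptgs2, Nos2, Ch25h and Olfr56 were also lost when genes of low counts were kept in the test.

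On the lower side stood the deleted gene and hypoxia genes. Dhx58 differed by -2.93 (SE 0.19, adjusted p = 3.82e-15). Mid1, a ubiquitin ligase gene of the X chromosome, had 13.5, 13 and 23.8 in KO mock and 18.6, 24.3 and 27.3 in KO PAMP libraries, which overlapped, against 115 ± 8.28 and 849 ± 31.5 in WT cells (SD, n = 3), and differed by -2.37 (SE 0.31, adjusted p = 5.52e-07). G530011O06Rik lies within Mid1 on the opposite strand and cannot be told apart from it. It differed by -1.98 (SE 0.54, adjusted p = 0.0108), a call lost without KO mock replicate 1 (-1.42, adjusted p = 0.0771). The KO response of Zfp395 was below that of WT by a difference of -2.16 (SE 0.24, adjusted p = 1e-08). Egln3 did so by -2.07 (SE 0.27, adjusted p = 2.98e-07), with 1639 ± 704 in WT mock and 133 ± 19.2 in WT PAMP cells. Ddit4 differed by -1.37 (SE 0.32, adjusted p = 0.0031), which DESeq2 did not call (adjusted p = 0.0518), and by -0.70 (adjusted p = 0.00361) without WT mock replicate 1. Of all genes tested 3.81% had a lower and 6.67% a higher KO response. Of 40 hypoxia genes 10 had a lower and 2 a higher KO response (10 and 1 under all 3 scalings), with a median of -0.22. Without WT mock replicate 1, 6 were lower and 1 higher, with a median of -0.06, while Egln3 (-1.65) and Zfp395 (-1.86) were still called. Of 33 lipid synthesis genes 10 were lower and none higher, 10 under all 3 scalings, with Sqle at -0.76 (SE 0.08) and Scd2 at -0.88 (SE 0.11).

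**Figure D5:**
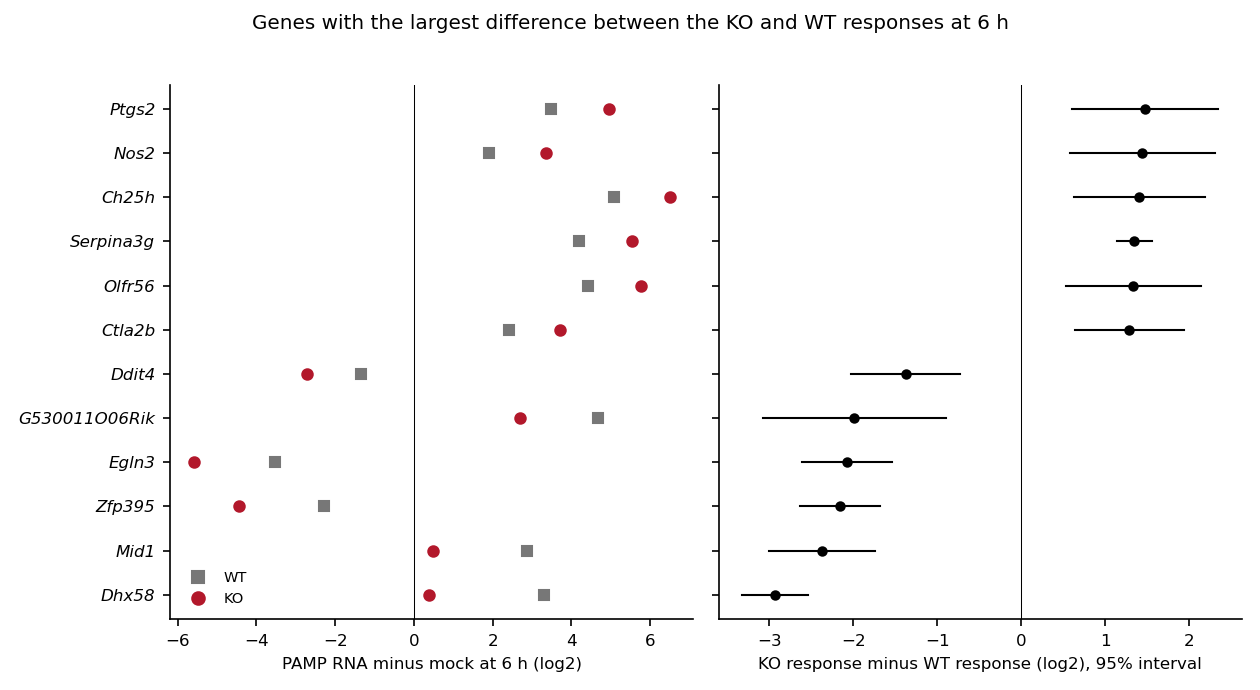
Left, the response at 6 h (x axis, log2) of the 12 genes named for the largest differences, squares for WT and circles for KO. Right, the KO response minus the WT response with its 95% interval. Serpina3g has the narrowest interval, 1.14 to 1.56. The genes were chosen as called in this same difference, so no interval could reach 0.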

How the data were processed

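Deposited counts per gene had been divided by a size factor for each library by the authors with DESeq, per the file name and labels, so the unit is a normalized count, a signal and not a read count. The submitters' processing notes name TopHat, Cufflinks, DESeq2 and the builds GRCm38 and mm10, with no role or version stated in the sources used here. The kit of the labels' protocols (SMARTer HV with Nextera XT) is not described as marking strand, and of 241 genes examined for the text 78 overlap a gene on the opposite strand.

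Dividing each column by its smallest step returned whole reads for 100% of values within 0.01 read. The 36 libraries held 4740909 to 14255730 reads. limma 3.58.1 (R 4.3.3) was fitted to log2(normalized count + 1) with a mean for each of 12 groups over 36 libraries, a trended prior and Benjamini-Hochberg adjustment over 11853 genes with a mean of at least 10. The differences of responses were contrasts of the same fit. edgeR 4.0.16 (quasi-likelihood) on the recovered reads called 4166 genes higher and 4198 lower in the KO response at 6 h, and DESeq2 1.42.0 4076 and 4044. The method was tested on simulated data.

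Genes named were Dhx58, up to 12 each for the greatest rises and falls, up to 6 each way in each difference of responses (called, mean of at least 50, and for the response no overlap between groups), and members of the lists with each list's extremes. The members and lists were chosen with earlier results of these data known. Other alternatives were a pseudocount of 5, a minimum of 50 or none, quantile normalization, equal totals (chosen after seeing the data), only the libraries of a contrast, a replicate block and each library left out. Replicate numbers did not pair libraries. Some genes are not reported here.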

Additional observations from a re-analysis of the deposited data

Results flagged for a closer look

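The response of KO cells differed between times and between genotypes by a test of the difference itself, in limma's fit over all 36 libraries. Between 6 h and 3 h 4838 genes were called. Of those named, the KO response at 6 h was larger for Ifna1 (3.01), Ifna5 (2.71), Ptgs2 (2.57), Slco3a1 (2.57), Edn1 (2.48) and Ccl7 (2.38). The values of Ifna1 and Ifna5 were not called by edgeR or DESeq2. The KO response at 6 h was lower for Tcp11l2 (-2.99), Rnf150 (-2.81), Mir5114 (-2.53), Aff3 (-2.50) and Mturn (-2.49). Between KO and WT cells at 6 h 1243 genes were called. The KO response was larger for Ptgs2 (1.47), Nos2 (1.44), Ch25h (1.40), Serpina3g (1.35), Olfr56 (1.33) and Ctla2b (1.29). It was lower for Dhx58 (-2.93), Mid1 (-2.37), Zfp395 (-2.16), Egln3 (-2.07), G530011O06Rik (-1.98) and Ddit4 (-1.37). Each value is a difference of 2 log2 changes, chosen for its size among called genes, and the responses compared with that of KO cells at 6 h reuse its 6 libraries.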

How the results depend on the processing

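Scaling was the choice that moved most. At equal total reads the KO response at 6 h had 1999 genes higher and 7883 lower, its difference from 3 h 1291 and 4309, and its difference from WT 380 and 1249. Quantile normalization gave 3363 and 4968 for the response, 2071 and 2352 for the difference from 3 h, and 381 and 516 for that from WT. Genes lower against WT numbered 287 in DESeq2 and 277 with only the libraries of the contrast. Interferon genes with a larger response at 6 h than at 3 h numbered 9 in limma, 4 in DESeq2 and 0 in edgeR. Signs turned for Dhx58 (-0.11 at equal totals), Ifnar1 (-0.12, quantile), Rps24 (-0.14, quantile), H2-Ab1 (-0.35, quantile, and -0.13, equal totals) and Cd74 (-0.71 and -0.35). The cause was not tested. Of 264 results for single genes 242 kept their direction and side of the threshold under every alternative run. With 1 library left out, the response had 3976 to 4055 genes higher and 4078 to 4156 lower, the difference from 3 h 2475 to 2613 and 1913 to 2098, and that from WT 614 to 761 and 306 to 454. The replicate numbers did not pair libraries: the median correlation of deviations of libraries with the same number was 0.002 (-0.114 to 0.183), and for 12 of 36 libraries the closest other library carried the same number. The fit with a replicate block called 4161 and 4332 genes, 2695 and 2141, and 803 and 460. Depth limits the genes with few mock reads, whose folds are bounds or wide intervals.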

Other observations

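Of 24 genes of the integrated stress and unfolded protein responses, not described above, 13 rose and 8 fell (6 and 8 under all 3 scalings, with 35.1% and 36.5%, or 16.3% and 33.2%, of all genes tested), with a median of 0.18, -0.16 under quantile normalization and -0.30 at equal totals. Ppp1r15a, which restores translation after stress, had 469, 466 and 503 normalized counts in KO mock and 2076, 2076 and 2451 in KO PAMP libraries at 6 h, the largest rise of the list at 2.19 (SE 0.08, adjusted p = 3.81e-28) in limma's test. Hspa5, the chaperone BiP, went from 4477, 4438 and 4619 to 13814, 14009.5 and 13655, 1.62 (SE 0.05), and Ddit3, the factor CHOP, changed by 1.23 (SE 0.11). Eif2ak3, the stress kinase PERK, had the largest fall, from 409, 368 and 395 to 126, 130.3 and 140.1, -1.55 (SE 0.09). The groups did not overlap for any of the 4 genes, as they did not for 73.0% of all genes tested. Of 14 heat shock chaperones 8 rose and 4 fell (3 and 4 under all 3 scalings), with a median of 0.30, -0.02 and -0.19 under the 3 scalings. Hspa1a, an inducible HSP70 with a near-identical copy in Hspa1b, had the largest rise, from 37.2, 57 and 48.5 to 424, 311 and 385, 2.96 (SE 0.18), and Dnajb4, a cochaperone, the largest fall (-0.60, SE 0.10). Of the 14 genes 9 had a larger and 2 a smaller response at 6 h than at 3 h (8 and 2 under all 3 scalings). Among all genes tested these shares were 22.8% and 18.1%.

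Of all genes tested 35.1% rose and 36.5% fell, and 16.3% and 33.2% did so under all 3 scalings. Of 34 ribosomal protein genes 15 rose and 6 fell on the deposited scaling, but none rose and 6 fell under all 3. The medians were 0.07, -0.45 and -0.42. Rps24 (0.49, SE 0.07) and Rpl3 (-0.39, SE 0.05) were the extremes, and Rps24 turned to -0.14 under quantile normalization. Of 31 subunits of oxidative phosphorylation 14 rose and 3 fell (1 and 3 under all 3 scalings), with medians of 0.18, 0.04 and -0.31. Cycs, cytochrome c, stood apart with 809.7, 784 and 774 in mock and 3682, 3572 and 3497 in PAMP libraries, a rise of 2.18 (SE 0.07), and Ndufa10, a complex I subunit, had the largest fall (-0.40, SE 0.09). Of 30 lysosome genes 16 rose and 6 fell (5 and 6 under all 3 scalings), with medians of 0.14, -0.31 and -0.35. Ctsc, the protease cathepsin C, had the largest rise, from 6663, 7148 and 7004 to 29909, 27097 and 27314, 2.02 (SE 0.04), and Smpd1, acid sphingomyelinase, the largest fall (-0.90, SE 0.10). Of 11 genes of cytokine mRNA decay and RNA editing 6 rose and 5 fell (4 and 5 under all 3 scalings), or 3 fell without KO PAMP replicate 2. Adar, the editing enzyme, had the largest rise, from 840.2, 943 and 892 to 4083, 4299 and 4318, 2.25 (SE 0.06), and Khsrp, which promotes decay of AU-rich mRNA, the largest fall (-0.55, SE 0.07).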
